A study of Mus musculus with 8 samples.

Results

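Human variants near a set of genes are associated with the risk of late-onset Alzheimer's disease, and the mouse counterparts of 10 of them (Cd33, Inpp5d, Plcg2, Ms4a6d, Sorl1, Bin1, Clu, Abca7, Cd2ap and Picalm) are described here in the hippocampus of an amyloid mouse model. A gene was counted when at least 1 probe set of the array was annotated to its symbol alone. This gave 9 of the 10 genes, with 21 of the 45037 probe sets tested. No probe set was annotated to Picalm, a clathrin adaptor of endocytosis, in the annotation used, and it was not analysed here. Where a gene had several probe sets, the one with the highest mean over the 8 arrays stands for it, and the others are given beside it.

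The mice were female Tg6799 animals (MT), which carry human APP and human PS1 transgenes with familial Alzheimer's mutations under Thy1 promoter sequence, active mainly in neurons, and their littermates (LM). Hippocampal RNA was measured at 8 months (MT8m and LM8m) and at 4 months (MT4m and LM4m) on 2 arrays per group, 8 in all. The values are deposited log2 expression values, which ran between 0.98 and 12.90, with array medians between 2.44 and 2.51 and correlations between arrays of 0.985 to 0.993. The labels do not say whether each array held 1 animal or a pool, so the p-values measure only the spread between these samples.

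The genes fall into a few known routes. CD33, INPP5D, PLCG2 and the MS4A proteins act in microglia, the resident macrophages of the brain, where immune receptors signal through adaptor proteins and kinases to phospholipase C, with phosphatases and inhibitory receptors as brakes. SORL1, BIN1, CD2AP and PICALM act in endocytosis and in the sorting of membrane proteins, including the amyloid precursor protein, and CLU and ABCA7 act in the handling of lipids. The 4 genes of the microglial route (Cd33, Inpp5d, Plcg2 and Ms4a6d) were therefore set beside the 5 other measured genes, which neurons, other glia or most cells express.

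The genotype labels were checked on Thy1, whose promoter sequence the transgenes carry, and on the glial genes Cst7 and Gfap. Thy1 read 9.90 and 11.79 in MT8m, against 9.92 and 9.53 in LM8m, and 11.73 and 11.82 in MT4m, against 9.96 and 9.76 in LM4m. The library labelled MT8m replicate 1 thus lay at the level of the littermates. It did so too for Cst7, a gene of microglia at plaques (1.75, against 8.03 in MT8m replicate 2 and 2.06 to 2.18 in LM), and for Gfap, an astrocyte gene (7.17, against 9.80 in MT8m replicate 2 and 6.99 to 7.31 in LM). It was kept under its label. The differences of the genes that it moved most are given without it as well. Leaving out any 1 array leaves a single array in its group, which cannot show the spread of that group. The Gapdh control probe sets at the 3' end exceeded those at the 5' end, a sign of RNA integrity, by 2.19 on LM4m replicate 1 and by 0.66 to 1.42 on the other 7 arrays.

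The 4 microglial members were higher on the MT8m replicate 2 array than on any of the 4 LM arrays, while the library labelled MT8m replicate 1 lay inside the range of the LM arrays for each of them. Their genotype differences, MT minus LM averaged over both ages, were between 0.22 and 0.59 on the log2 scale, but none passed the test (limma across all probe sets, Benjamini-Hochberg adjusted p). In the gene table published with the study the columns of these arrays carry the opposite genotype names. The labels in the repository were used here, so the signs of the genotype differences and of the interaction given below run against that table. Among all 9 genes 0 passed, against 0.06% of all probe sets. At an unadjusted p below 0.05 the count was 1, Plcg2, against 5.76% of all probe sets (2.54% of all were higher in MT). With single arrays left out, the averaged difference of Plcg2 ran between 0.22 without MT8m replicate 2 and 0.50 without the library labelled MT8m replicate 1. Those of Inpp5d, Ms4a6d and Cd2ap were 0.97, 0.62 and 0.49 without the library labelled MT8m replicate 1. In the same order they were 0.22, -0.004 and 0.20 without MT8m replicate 2.

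**Figure D1:**
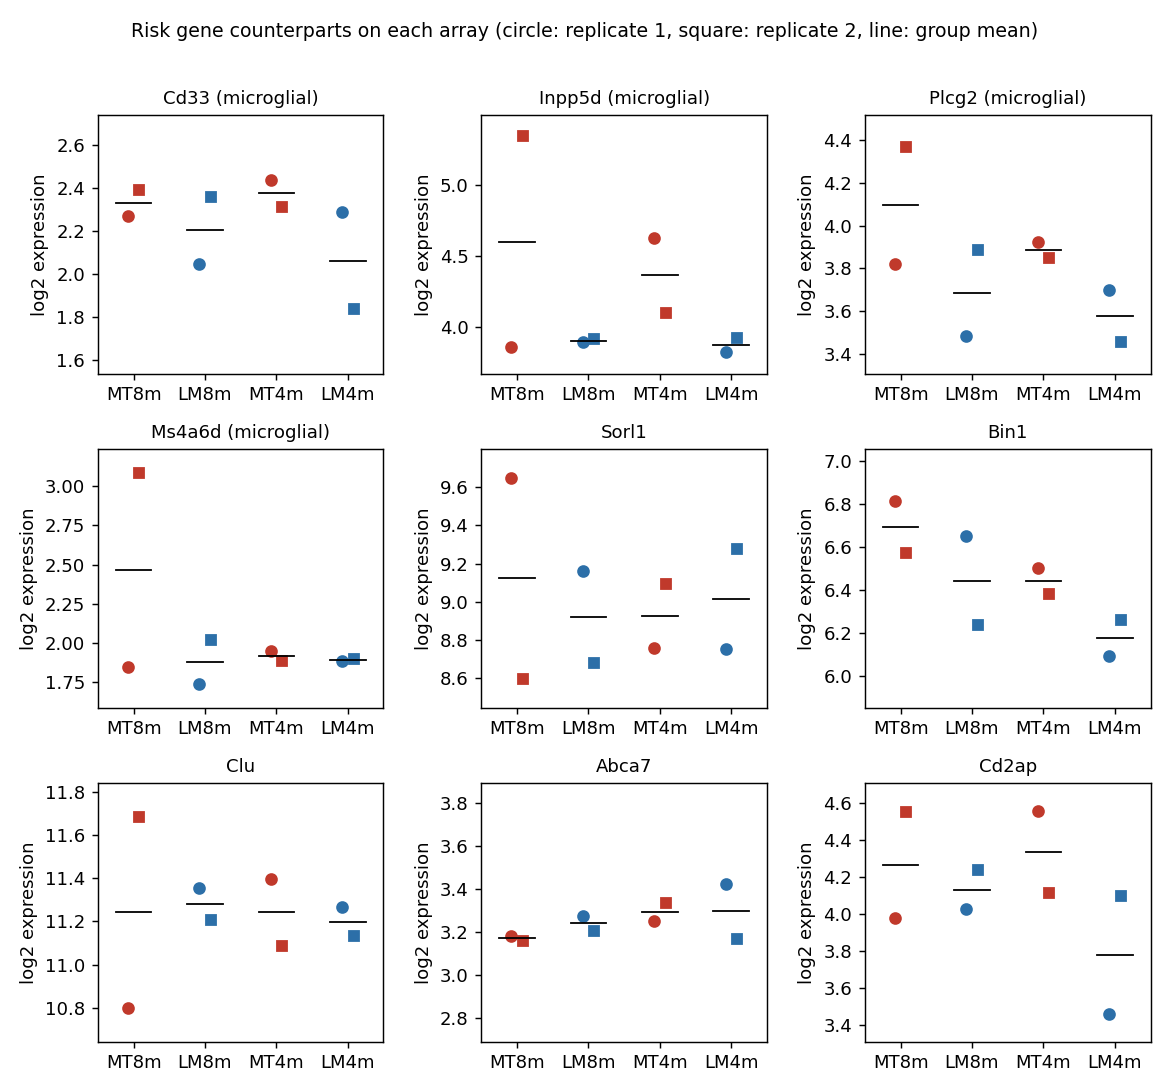
Log2 expression of the 9 measured genes (y axis, 1 panel per gene, brightest probe set) in MT8m, LM8m, MT4m and LM4m (x axis), where a circle stands for the first array of a group, a square for the second and the horizontal line for their mean. Inpp5d and Ms4a6d were highest on the MT8m replicate 2 array (5.34 and 3.09), whereas the library labelled MT8m replicate 1 read 3.86 and 1.84.

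To place the microglial members beside a neuronal one, the regions around their transcription starts are shown, from the RefSeq annotation of GRCm38.p6, each with 250 bases before and 50 bases from the start (position 1 is the first transcribed base). RefSeq entries were matched by symbol for 7 of the 10 genes. Inpp5d lies at chr1:87620062-87620361 on the plus strand, Cd33 at chr7:43533122-43533421 on the minus strand, Plcg2 at chr8:117498025-117498324 on the plus strand, and the first of the entries of Sorl1 at chr9:42124248-42124547 on the minus strand. Capitals mark matches, on either strand, to GAGGAA, the core that the macrophage factor PU.1 binds, and to GGGCGG, the GC box that Sp factors bind.
Inpp5d: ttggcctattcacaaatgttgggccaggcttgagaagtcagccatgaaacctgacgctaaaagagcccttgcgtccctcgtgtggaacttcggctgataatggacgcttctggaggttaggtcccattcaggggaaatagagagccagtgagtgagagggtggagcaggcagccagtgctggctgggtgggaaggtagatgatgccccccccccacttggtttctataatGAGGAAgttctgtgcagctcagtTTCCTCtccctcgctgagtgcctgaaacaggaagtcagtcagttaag
Cd33: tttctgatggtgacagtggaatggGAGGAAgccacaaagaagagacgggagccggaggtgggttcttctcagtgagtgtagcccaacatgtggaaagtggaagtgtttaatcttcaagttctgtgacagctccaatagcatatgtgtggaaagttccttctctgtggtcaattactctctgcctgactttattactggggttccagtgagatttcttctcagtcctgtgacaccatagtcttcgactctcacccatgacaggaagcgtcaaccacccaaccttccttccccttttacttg
Plcg2: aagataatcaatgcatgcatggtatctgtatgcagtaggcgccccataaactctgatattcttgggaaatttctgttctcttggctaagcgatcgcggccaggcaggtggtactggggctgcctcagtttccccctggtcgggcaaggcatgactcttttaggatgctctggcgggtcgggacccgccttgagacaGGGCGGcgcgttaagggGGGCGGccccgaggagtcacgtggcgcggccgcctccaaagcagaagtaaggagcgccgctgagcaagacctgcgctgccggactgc
Sorl1: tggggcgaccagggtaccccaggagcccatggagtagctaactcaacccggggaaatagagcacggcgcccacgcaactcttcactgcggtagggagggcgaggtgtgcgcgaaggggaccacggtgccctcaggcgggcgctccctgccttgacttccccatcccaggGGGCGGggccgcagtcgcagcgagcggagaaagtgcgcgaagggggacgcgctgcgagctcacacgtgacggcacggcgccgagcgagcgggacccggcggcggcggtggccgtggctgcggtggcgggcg

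The Inpp5d window held the PU.1 core at -20 to -15 and, on the other strand, at 4 to 9, and the Cd33 window held it once, at -226 to -221. The Plcg2 window held no such core but had GC boxes starting at -54 and -37, and the Sorl1 window had 1 GC box starting at -81. Over the 8 entries of these genes, 3 held the PU.1 core and 5 a GC box, against 28.3% and 35.7% of all 32851 promoter entries of the same length. The 3 with the core were those of Inpp5d, Cd33 and Picalm, so they are not all microglial members. The Picalm entry, not shown, held 2 such cores and 6 GC boxes, and the second Sorl1 entry held neither motif. The matches describe these letters only, and binding was not measured.

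Inpp5d encodes SHIP1, a lipid phosphatase that limits phosphoinositide signalling in blood cells and microglia. Its brighter probe set read 3.86 and 5.34 in MT8m, against 3.89 and 3.92 in LM8m, and 4.63 and 4.10 in MT4m, against 3.82 and 3.92 in LM4m. Of the 4 MT arrays 3 lay above all LM arrays, and the library labelled MT8m replicate 1 lay among them. The averaged difference was 0.59 ± 0.28 (SE), or 1.51-fold, with a 95% interval from -0.05 to 1.24 (adjusted p = 0.853). It was 0.70 ± 0.40 at 8 months and 0.49 ± 0.40 at 4 months. Leaving out the library labelled MT8m replicate 1 gave an averaged difference of 0.97, and leaving out MT8m replicate 2 gave 0.22, each with a single MT8m array remaining. The second probe set was dimmer, with 2.47 and 2.62 in MT8m, against 2.25 and 2.31 in LM8m, and 2.10 and 2.53 in MT4m, against 2.34 and 1.97 in LM4m. There both MT8m arrays lay above both LM8m arrays, and the averaged difference was 0.21 ± 0.13.

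Plcg2 encodes phospholipase C gamma 2, which acts below immune receptors and cleaves a membrane phosphoinositide. It read 3.82 and 4.37 in MT8m, against 3.48 and 3.89 in LM8m, and 3.92 and 3.85 in MT4m, against 3.70 and 3.46 in LM4m. The 4-month groups did not overlap, and at 8 months LM8m replicate 2 lay above the library labelled MT8m replicate 1. Averaged over ages the difference was 0.36 ± 0.15, or 1.28-fold, with an interval from 0.02 to 0.70 (adjusted p = 0.853). It was 0.41 ± 0.21 at 8 months and 0.31 ± 0.21 at 4 months. Leaving out the library labelled MT8m replicate 1 gave 0.50, and leaving out MT8m replicate 2 gave 0.22.

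Ms4a6d encodes a membrane-spanning protein of macrophages and microglia in the family that the human MS4A risk region holds. Its brightest probe set, whose suffix marks probes that can match several transcripts of a gene family, read 1.84 and 3.09 in MT8m, against 1.74 and 2.02 in LM8m. The 4-month arrays read 1.95 and 1.89 in MT4m, against 1.89 and 1.90 in LM4m. A single array, MT8m replicate 2, stood above the other 7, which lay within 1.74 to 2.02. Over both ages MT exceeded LM by 0.31 ± 0.23 (adjusted p = 0.882), with 0.59 ± 0.33 at 8 months and 0.03 ± 0.33 at 4 months. At 8 months it was 1.21 once the library labelled MT8m replicate 1 was left out, and -0.03 once MT8m replicate 2 was, each with a single MT8m array remaining. Of the dimmer probe sets of the gene, one was also highest on MT8m replicate 2 (2.12, against 1.47 to 1.84 elsewhere), while the other lay between 1.04 and 1.56 and was highest on the library labelled MT8m replicate 1.

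Cd33 is the mouse counterpart of human CD33, a sialic acid receptor that inhibits myeloid cells. Its probe set read 2.27 and 2.39 in MT8m, against 2.05 and 2.36 in LM8m, and 2.44 and 2.31 in MT4m, against 2.29 and 1.84 in LM4m. The 4-month groups did not overlap, by a small margin, and the 8-month groups did. Averaged over ages MT exceeded LM by 0.22 ± 0.13 (adjusted p = 0.858), with 0.13 at 8 months and 0.31 at 4 months. Single LM arrays moved it, to 0.11 without LM4m replicate 2, 0.33 without LM4m replicate 1 and, at 8 months, -0.03 without LM8m replicate 1. Both this probe set and that of Ms4a6d had means below the median of all probe sets (2.48), where differences on this log scale can be compressed, and the files gave no detection call.

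Sorl1, a sorting receptor of neurons that steers the amyloid precursor protein between compartments, showed no common direction. It read 9.65 and 8.60 in MT8m, against 9.16 and 8.68 in LM8m, and 8.76 and 9.09 in MT4m, against 8.75 and 9.28 in LM4m. The highest and the lowest of the 8 arrays were both labelled MT8m, and the groups overlapped at each age. The averaged difference was 0.06 ± 0.24, with an interval from -0.49 to 0.61 (adjusted p = 0.986). It was -0.21 without the library labelled MT8m replicate 1 and 0.32 without MT8m replicate 2. A nearly as bright probe set kept within 8.73 to 9.07, with a difference of 0.03 ± 0.11. The dimmest probe set of the gene read 4.28 and 2.64 in MT8m, against 3.92 and 4.01 in LM8m, and 3.54 and 4.06 in MT4m, against 4.09 and 4.30 in LM4m, a difference of -0.45 ± 0.31. MT8m replicate 2 was the lowest array for it, and the MT4m arrays lay below the LM4m arrays.

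Bin1 encodes amphiphysin 2, which curves membranes in endocytosis, and oligodendrocytes, neurons and microglia express forms of it. It read 6.81 and 6.57 in MT8m, against 6.65 and 6.24 in LM8m, and 6.50 and 6.38 in MT4m, against 6.09 and 6.26 in LM4m. The MT4m arrays lay above the LM4m arrays, and at 8 months LM8m replicate 1 lay between the MT8m arrays. The averaged difference was 0.26 ± 0.12, or 1.20-fold (interval -0.02 to 0.53, adjusted p = 0.853), with 0.25 at 8 months and 0.26 at 4 months. The 8-month value was 0.13 without the library labelled MT8m replicate 1, 0.46 without LM8m replicate 1 and 0.04 without LM8m replicate 2. The 8-month minus 4-month difference of the same probe set was 0.26 ± 0.12 (adjusted p = 0.779), the lowest adjusted p among the brightest probe sets of the 9 genes for age. A second probe set read 4.37 and 3.99 in MT8m, against 3.89 and 3.48 in LM8m, and 3.42 and 3.67 in MT4m, against 3.64 and 3.68 in LM4m. Its age difference was 0.33 (adjusted p = 0.738). There the MT8m arrays lay above all others and the MT4m arrays did not stand above the LM4m arrays. The third stayed between 1.97 and 2.26.

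Cd2ap encodes a scaffold that ties membrane receptors to actin. It read 3.98 and 4.55 in MT8m, against 4.03 and 4.23 in LM8m, and 4.56 and 4.11 in MT4m, against 3.46 and 4.10 in LM4m. The 4-month groups did not overlap, with a narrow gap between MT4m replicate 2 and LM4m replicate 2. The averaged difference was 0.34 ± 0.19 (adjusted p = 0.856), with 0.13 ± 0.27 at 8 months and 0.56 ± 0.27 at 4 months (adjusted p = 0.944). The 4-month difference was 0.24 without LM4m replicate 1, the array with the high Gapdh 3' to 5' difference, and 0.88 without LM4m replicate 2. The 8-month difference was 0.42 without the library labelled MT8m replicate 1 and -0.16 without MT8m replicate 2. The part of RNA integrity in it was not tested. The other probe sets of the gene were dim, with means of 1.72 and 1.70, and for both all 8-month arrays lay above all 4-month arrays. The dimmer one read 1.82 and 1.71 in MT8m, against 1.67 and 2.44 in LM8m, and 1.47 and 1.49 in MT4m, against 1.43 and 1.52 in LM4m, an averaged genotype difference of -0.14 and an age difference of 0.43 ± 0.16 (adjusted p = 0.700).

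Clu encodes clusterin, a secreted chaperone and lipid carrier of astrocytes, neurons and choroid plexus. Its 4 probe sets had means of 10.01 to 11.24, and the suffix of 3 of them marks probes that can match other sequences. The brightest read 10.80 and 11.68 in MT8m, against 11.35 and 11.21 in LM8m, and 11.40 and 11.09 in MT4m, against 11.26 and 11.13 in LM4m. The highest array, MT8m replicate 2, and the lowest, the library labelled MT8m replicate 1, carry 1 group label, and MT8m replicate 2 was the highest array for all 4 probe sets. The library labelled MT8m replicate 1 was the lowest for 3 of them and, for the other, lay just above MT4m replicate 2 (10.94 for both). Between MT and LM the averaged difference was 0.00 ± 0.18, with an interval from -0.42 to 0.42 (adjusted p = 0.999). Leaving out single arrays moved it between -0.22 and 0.22. A list of 8 astrocyte markers had the same extremes, with mean deviations of -0.30 on the library labelled MT8m replicate 1, 0.67 on MT8m replicate 2 and -0.14 to 0.11 elsewhere. A list of 8 choroid plexus genes lay lower on all MT arrays (mean deviations of -1.30 to -1.06) than on the LM arrays (0.79 to 1.94), and the part of either list in the level of Clu was not tested.

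Abca7, a lipid transporter of the ABC family, varied least. It read 3.18 and 3.16 in MT8m, against 3.28 and 3.20 in LM8m, and 3.25 and 3.34 in MT4m, against 3.42 and 3.17 in LM4m. MT minus LM gave -0.04 ± 0.09, with an interval from -0.25 to 0.18 (adjusted p = 0.973). The MT8m arrays lay just below the LM8m arrays.

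**Figure D2:**
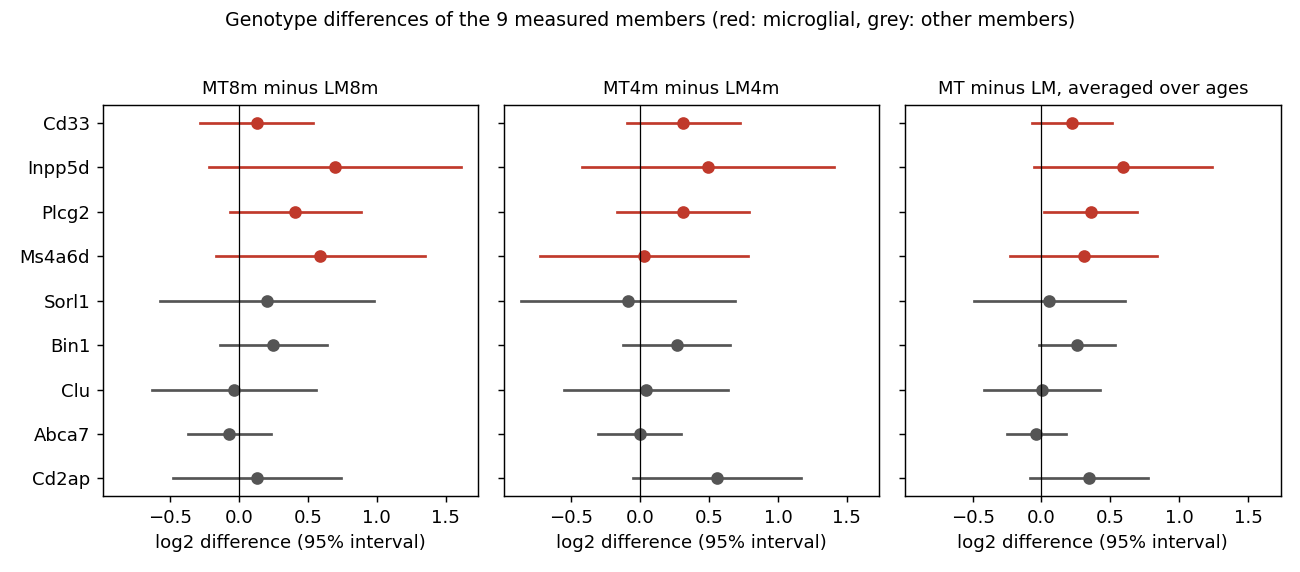
Genotype differences (log2, x axis) of the 9 genes (y axis) with 95% intervals, at 8 months, at 4 months and averaged over both ages, with microglial members in red and the others in grey. In the averaged panel only the interval of Plcg2 (0.02 to 0.70) lies above 0.

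On the brightest probe sets 0 of the 9 genes passed the test at 8 months (0.02% of all probe sets did). On these, 0 had an unadjusted p below 0.05 (3.39%), with 7 differences above 0 (50.6% of genes). The second probe set of Bin1 was below 0.05 unadjusted at 8 months (0.50 ± 0.19). The 8-month count rested on single arrays, which moved the differences. Without the library labelled MT8m replicate 1 they were 1.44 for Inpp5d, 0.68 for Plcg2, 1.21 for Ms4a6d, -0.32 for Sorl1 and 0.40 for Clu. In the same order they were -0.05, 0.14, -0.03, 0.73 and -0.48 without MT8m replicate 2. That of Bin1 was 0.46 without LM8m replicate 1, and that of Plcg2 was 0.61 without LM8m replicate 2. At 4 months 0 passed, as did 0% of all probe sets, and 0 were below 0.05 unadjusted (4.86%), with 7 differences again above 0 (44.8% of genes). Averaged over ages, 8 of the 9 differences were above 0, all but Abca7, against 46.5% of 18193 genes. The median difference was 0.33 over the 4 microglial members and 0.06 over the 5 others (range -0.04 to 0.34), against -0.01 over all genes. At 8 months the medians were 0.50 and 0.13 (all genes 0.00), and at 4 months 0.31 and 0.04 (all genes -0.02). The averaged ranges of the gene classes overlap. Of the other class, Cd2ap (0.34) lay above Ms4a6d (0.31) and Cd33 (0.22), and Bin1 (0.26) lay above Cd33. The microglial median was 0.56 without the library labelled MT8m replicate 1 and 0.21 without MT8m replicate 2.

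The groups were also compared by overlap, on the brightest probe set of each gene. No gene had all 4 MT arrays on one side of all 4 LM arrays (3.26% of all probe sets did). At 8 months no gene was higher on both MT8m arrays than on both LM8m arrays, and Abca7 was lower on both, against 15.2% and 13.1% of all probe sets. At 4 months 5 genes were higher on both MT4m arrays and 0 were lower, against 17.1% and 19.1% of all probe sets. They were Cd33, Inpp5d, Plcg2, Bin1 and Cd2ap.

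For 5 of the 9 genes the widest gap between replicates lay in MT8m, and for Cd33, Bin1, Cd2ap and Abca7 it lay in a littermate group. The MT8m replicates were more than 0.5 apart for 6 of the 9 genes, against 10.6% of all genes, and more than 1 apart for 3 (Inpp5d, Ms4a6d and Sorl1), against 1.82%. Inpp5d, Ms4a6d, Clu, Cd2ap and Plcg2 were higher on replicate 2 by 1.48, 1.24, 0.89, 0.57 and 0.55. Sorl1 was lower on it, with 8.60 against 9.65.

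Markers of cell types moved with these values. The 13 measured of 14 microglial marker genes had mean deviations of -0.55 on the library labelled MT8m replicate 1 and 1.56 on MT8m replicate 2, against -0.64 and -0.41 in LM8m. At 4 months they were 0.77 and 0.45 in MT4m, against -0.49 and -0.70 in LM4m. Summed on the linear scale, the list stood at 1142 to 5803 on the MT arrays and 1055 to 1289 on the LM arrays. The 4 microglial members followed the same order of arrays at the top, with mean deviations of 0.73 on MT8m replicate 2 and 0.17 on MT4m replicate 1, while MT4m replicate 2 (-0.03) lay between LM8m replicate 1 (-0.28) and LM8m replicate 2 (-0.02). All 13 markers had averaged differences above 0 (median 1.26), 8 of them with an unadjusted p below 0.05, and 0 passed, against 46.5% of genes above 0 and, of all probe sets, 2.54% higher at that threshold and 0.06% passing. The median of the 13 was 1.82 without the library labelled MT8m replicate 1 and 0.62 without MT8m replicate 2. In bulk tissue, fewer cells of a type and less RNA per cell cannot be told apart, and how far the number of microglia sets the level of the microglial members was not tested. A list of 8 genes of microglia at plaques stood at -0.63 and 1.88 in MT8m, against -0.83 and -0.51 in LM8m, and at 1.24 and 0.55 in MT4m, against -0.73 and -0.98 in LM4m. Of the 10 neuron markers (median difference -0.04), the synaptic gene Snap25, at 10.79 to 11.47, was higher on all MT than on all LM arrays (0.31 ± 0.11), while Syn1 (-0.34) and Tubb3 (-0.19) had differences below 0. The mean deviation of the 10 neuron markers varied from -0.21 on MT8m replicate 2 to 0.13 on the library labelled MT8m replicate 1. The brightest probe set of Sorl1 had the same extremes, while its nearly as bright one was lowest on LM8m replicate 2 (8.73). Markers of border macrophages and monocytes stood highest on LM8m replicate 2 (0.46) and LM4m replicate 1 (0.42) and lay between -0.22 and -0.07 on the other arrays.

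**Figure D3:**
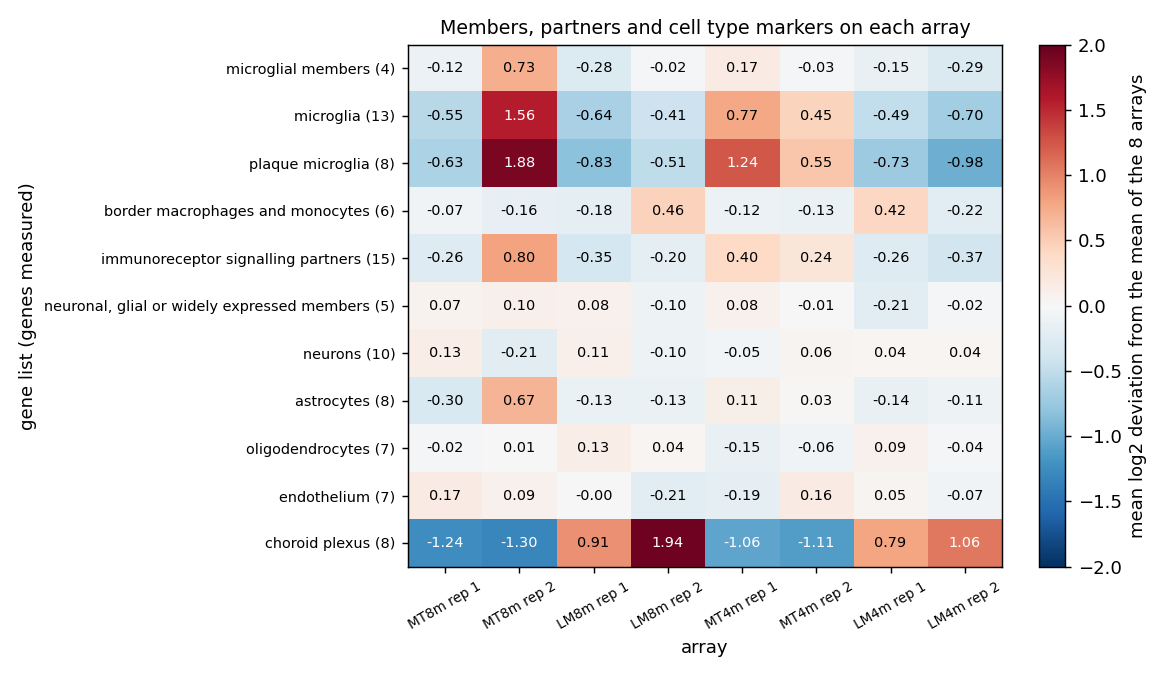
Mean log2 deviation from the 8-array mean (colour and printed value) of the risk gene classes, the immunoreceptor partners and lists of cell type markers (rows, with the number of genes measured) on each array (columns). The microglial members reach 0.73 on MT8m replicate 2, where the microglial markers reach 1.56, and the choroid plexus markers are below 0 on all MT arrays.

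The genes that work with the members were counted list by list. Of 15 measured genes of immunoreceptor signalling, the route of Plcg2 and Inpp5d, 13 had averaged differences above 0 (median 0.24) and 6 had an unadjusted p below 0.05, each higher in MT, while 0 passed (46.5% of genes were above 0, and 2.54% of probe sets higher at that threshold). The mean deviation of the list was -0.26 on the library labelled MT8m replicate 1 and 0.80 on MT8m replicate 2. It was 0.40 and 0.24 in MT4m and lay between -0.37 and -0.20 on the LM arrays. Its median difference was 0.30 without the library labelled MT8m replicate 1 and 0.24 without MT8m replicate 2. The largest were Tyrobp (1.88 ± 0.57, adjusted p = 0.775), the adaptor of several microglial receptors, the receptor Trem2 (1.87 ± 0.60, adjusted p = 0.816) and the Fc receptor parts Fcgr3 (1.41) and Fcer1g (1.29). These stand beside differences of 0.36 for Plcg2 and 0.59 for Inpp5d further down the route, and the contrast between them was not tested. Of 7 sialic acid receptors related to Cd33, 1 was below 0.05 unadjusted, Siglech (1.01 ± 0.37), a microglial gene, and the list had a median of 0.14. That median was 0.14 without the library labelled MT8m replicate 1 and 0.19 without MT8m replicate 2. Of 11 Ms4a family genes 0 were below 0.05 unadjusted, with a median of 0.04.

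Among 19 genes of clathrin endocytosis, the route of Bin1, Cd2ap and Picalm, the median was 0.01 and 0 passed. The adaptor subunit Ap2b1 was lower in MT at an unadjusted p below 0.05 (-0.45 ± 0.11, adjusted p = 0.689), with all MT arrays below all LM arrays. Amph, a relative of Bin1 at synapses, was higher in MT at the same threshold (0.29 ± 0.10). Of 16 retromer and sorting genes, Sorl1 included, 0 were below 0.05 unadjusted (median 0.03), and neither were any of 15 lipid genes related to Clu and Abca7 (median -0.05). There the cholesterol transporters Abca1 and Abcg4 had differences of 0.41 and -0.35, and the lipid carrier Apoe 0.38. Without the library labelled MT8m replicate 1 the median was 0.03 for the clathrin genes, -0.07 for the sorting genes and -0.03 for the lipid genes. Of 20 measured counterparts of other risk genes (median 0.03), Trem2 and Abi3 (0.28) were higher in MT at an unadjusted p below 0.05. Ace, a peptidase of blood vessels and choroid plexus, was lower at that threshold (-0.57 ± 0.12, adjusted p = 0.46), and 0 of the 20 passed.

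**Figure D4:**
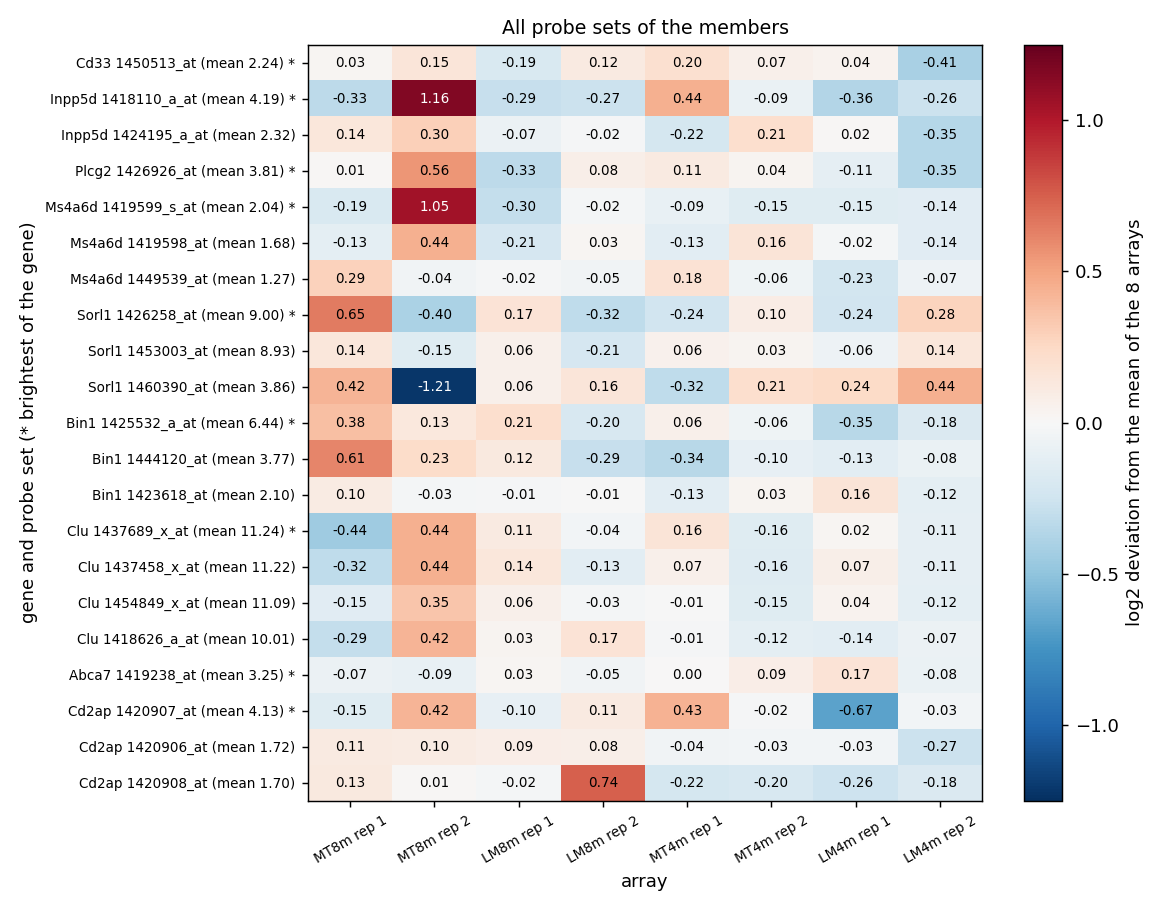
Log2 deviation from the 8-array mean (colour and printed value) for all 21 probe sets (rows, with their mean, an asterisk for the brightest of each gene) on each array (columns). The 4 Clu probe sets are all highest on MT8m replicate 2, while the probe sets of Sorl1, Bin1 and Cd2ap differ among themselves.

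Age was compared as 8 months minus 4 months. On their brightest probe sets none of the 9 genes passed, averaged over genotypes (0% of all probe sets), and 0 had an unadjusted p below 0.05 (6.48%). The second probe set of Bin1 (0.33 ± 0.13) and the dimmest of Cd2ap (0.43 ± 0.16) were below 0.05 unadjusted. With all arrays the differences of the brightest probe sets lay between -0.09 for Abca7 and 0.27 for Ms4a6d. No gene had all 8-month arrays of its brightest probe set on one side of the 4-month arrays (3.72% of all probe sets did). Single arrays moved these differences. That of Inpp5d was 0.51 without the library labelled MT8m replicate 1 and -0.24 without MT8m replicate 2, and that of Ms4a6d 0.58 and -0.04. For Bin1 it ran between 0.16 without LM8m replicate 1 and 0.36 without LM8m replicate 2. On the brightest probe sets the interaction, the genotype difference at 8 months minus that at 4 months, was largest for Ms4a6d (0.56 ± 0.47). It was most negative for Cd2ap (-0.43 ± 0.38), with 0 genes passing (0%) and 0 below 0.05 unadjusted (2.58%). On the second probe set of Bin1 the interaction was 0.62 ± 0.26, below 0.05 unadjusted, and did not pass. For Ms4a6d it was 1.19 without the library labelled MT8m replicate 1 and -0.06 without MT8m replicate 2, and for Cd2ap it ran between -0.74 without LM4m replicate 2 and -0.11 without LM4m replicate 1. For Inpp5d it was 0.20 with all arrays, 0.95 without the library labelled MT8m replicate 1 and -0.54 without MT8m replicate 2.

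Of the 9 genes, 2 varied enough over the 8 arrays (SD above 0.4) for a search of the probe sets with the most similar pattern. For Inpp5d these were C6, Cx3cr1, a chemokine receptor of microglia, and C3ar1, a complement receptor, with Pearson correlations of 0.987, 0.981 and 0.979. For Ms4a6d they were Apoc2, Nrk and Lpxn (0.978, 0.978 and 0.974). All of these genes were highest on MT8m replicate 2. The probe sets of C6 (mean 1.75), Apoc2 (1.70), Nrk (1.66) and Lpxn (2.33) lay below the median of all probe sets (2.48). The correlations run over 8 arrays that share that array and are given as a description.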

How the data were processed

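Hippocampal RNA of the 8 samples was hybridised to Affymetrix mouse expression arrays by the authors. The deposited log2 values come from robust multi-array averaging of all arrays with the affy package, per the labels and the study's methods, which corrects background, normalizes by quantiles and summarises probes; it removes shifts common to an array, and it compresses differences of dim probe sets. Depth does not apply, and 2 arrays per group limit the precision. Of 45101 probe sets, 64 controls were left out of the tests. Names came from the platform annotation, updated by Entrez ID to RefSeq: 34945 probe sets had 1 symbol, 932 several and 9160 none, which gave 18193 genes.

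limma 3.58.1 (R 4.3.3) was fitted to the 4 group means of all 45037 probe sets, and p-values were adjusted by the Benjamini-Hochberg method over all of them, with a threshold of 0.05. Differences are on the log2 scale, with the SE of the fit. The script was tested on simulated data. Named genes were the members, in each list up to 4 genes with the widest averaged genotype difference, and for a member with an SD above 0.4 the 3 genes most alike by Pearson correlation. The members, lists and tests were chosen with earlier results of these data known. As alternatives, probe sets below the median level were dropped, arrays were normalized again by cyclic loess, and the prior was made trended and robust. The others were 1 probe set per gene or their mean, fits of 2 groups, an additive model, a replicate block and leaving out each array.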

Additional observations from a re-analysis of the deposited data

How the results depend on the processing

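No member passed the test in any of the 7 contrasts under any alternative run, while gene lists described beside them gained calls without the library labelled MT8m replicate 1. That fit leaves a single MT8m array, so those calls do not measure the spread of the group. The medians of those lists without single arrays were added after seeing the data. The number of probe sets passing at 4 months (0) was 5 with the filter on dim probe sets, 4 with cyclic loess, 7 with a trended robust prior, 1 with a single probe set per gene, 1 with the mean over probe sets, 24 with the groups fitted alone, and 0 to 12 when single arrays were left out. At 8 months (9) it was 14, 22 with the trended robust prior, 3 with the mean over probe sets and 0 with the groups alone, and 1 to 95 without single arrays. Averaged over ages (27) it ranged over 5 to 142 without single arrays. The median of the microglial members was 0.48 with the filter on dim probe sets, which left out Cd33 and Ms4a6d, and 0.29 with the mean over probe sets. It ranged over 0.21 to 0.56 without single arrays, and that of the other members over -0.035 to 0.20, crossing 0 without LM8m replicate 2. The cause of these shifts was not tested.

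The replicate numbers in the titles are shared by groups of 1 genotype at different ages only. Deviations of same-numbered arrays correlated at 0.206 in LM and -0.174 in MT. With 2 arrays a group this is a single correlation per genotype, which cannot decide whether same-numbered arrays were paired. With the replicate block 0 probe sets and 0 members passed for age or for the interaction (3303 probe sets at an unadjusted p below 0.05 for age averaged, against 2920 without the replicate block). With the MT numbers crossed, chosen after seeing the data, 3, 2, 3 and 1 probe sets passed for age averaged, age in MT, age in LM and the interaction. The comparisons of genotype had no paired fit. Signal near background limits Cd33, Ms4a6d and the dimmer probe sets.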
